A study of Nothobranchius furzeri with 10 samples.

Results

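Muscle RNA of Nothobranchius furzeri, the turquoise killifish, whose short life makes it a model of ageing, was sequenced in 10 libraries whose sample titles carry the numbers JG80 to JG84 and JG74 to JG78. The contrast described here sets the 5 libraries JG80 to JG84 against the 5 libraries JG74 to JG78, which together are all 10 libraries of the series. Every library came from males of the inbred strain GRZ at 10 weeks of age, and every library carries the same perturbation label, swim-tunnel, a device in which fish swim against a water current. The labels name no unexercised fish and do not say what the title numbers stand for. The 2 number blocks are therefore an unlabelled contrast, and from the labels no difference between them can be assigned to exercise or to any other factor. Whether the libraries of a block came from different fish is not stated either, and the spread within a block, which refers to these libraries, may be technical.

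The 2 blocks were chosen by the expression values of these same libraries: the break in the title numbers coincided with the separation of the libraries on the first principal component of their gene levels. In the genes compared here that component held 44.2% of the variance, and its scores were 22.5 to 57.7 in JG80 to JG84 and -56.1 to -23.7 in JG74 to JG78. Differences between the blocks in any gene are for that reason given as descriptions. Calls from a statistical model are used to say how large a difference was beside the spread within the blocks, and they are not a test of whether the blocks differ.

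Skeletal muscle of fish consists of slow, oxidative fibres and fast, glycolytic fibres, accompanied by connective tissue, vessels, nerve and blood cells. Contractile and energy-metabolism transcripts are very abundant in such tissue, so a small change in their share alters the share left to all other transcripts. Which transcripts those are could not be read here, because the deposited table carries identifiers only and 0 of its 26739 identifiers matched the gene names used. Markers of fibre types or of other cell types could not be checked against the tissue label. In bulk tissue, fewer cells of a type and less RNA per cell cannot be told apart.

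The table held 26739 genes, of which 4542 had no count in any library and a further 6103 had too few counts. The remaining 16094 genes were compared, and they held at least 99.9% of the counts of every library. Total counts averaged 33187264 ± 5946332 in JG80 to JG84 and 27852079 ± 2336440 in JG74 to JG78 (SD, n = 5 each). The ranges, 26852341 to 42170825 in JG80 to JG84 and 24844696 to 30973146 in JG74 to JG78, overlapped. The difference of 5335185 counts did not pass an exact two-sided permutation test (p = 0.103, n = 5 each). With single libraries left out, it passed only without JG81, at a difference of 6918916 counts (exact permutation p = 0.0397), and it was smallest without JG83, at 3089295 counts (exact permutation p = 0.183). JG81 had the smallest and JG83 the largest total of JG80 to JG84, so these shifts had to follow. The tests with libraries left out were not adjusted for their number. The permutation test treats libraries as independent, which the labels do not show. After every library was thinned to the smallest total, 19976.8 ± 227 genes had a count in JG80 to JG84 and 19932.2 ± 271 in JG74 to JG78 (SD, n = 5 each), and these ranges overlapped as well.

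The separation that chose the blocks can be described in several ways, none of which adds to it. Levels were expressed in CPM, the count of a gene scaled to a common library size, and as log2 CPM. Across the 16094 genes, which do not vary independently, Pearson correlations of log2 CPM were 0.961 to 0.980 for the 10 pairs within JG80 to JG84 and 0.954 to 0.984 for the 10 pairs within JG74 to JG78. The 25 pairs between blocks had correlations of 0.911 to 0.958, so the highest of them lay below the lowest within JG80 to JG84 and above the lowest within JG74 to JG78. For the median gene, 38.3% of the variance of log2 CPM among libraries lay between the blocks, and in 6670 genes (41.4%) it was over 50%.

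Each library was also placed on the axis between the block means of the other libraries, with 0 at the mean of JG74 to JG78 and 1 at the mean of JG80 to JG84. JG80, JG81, JG82, JG83 and JG84 took the positions 1.01, 0.744, 0.852, 1.07 and 0.864. JG74, JG75, JG76, JG77 and JG78 took the positions 0.00716, 0.146, -0.0148, 0.171 and 0.248. No library lay near the middle of the axis, and the closest to the other block were JG81 and JG78. The means that set the axis were computed without the library placed on it. The blocks themselves were chosen with all 10 libraries in view, and the gene filter and the scaling used all 10.

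**Figure D1:**
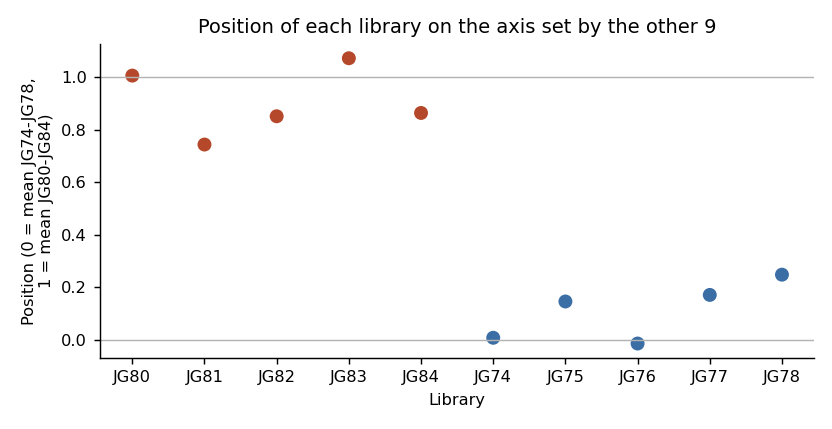
Position of each library (horizontal axis) on the axis from the mean of JG74 to JG78 (0) to the mean of JG80 to JG84 (1), computed from log2 CPM of 16094 genes with the library itself left out of the means. The 5 libraries JG80 to JG84 (red) lay between 0.744 and 1.07, and the 5 libraries JG74 to JG78 (blue) between -0.0148 and 0.248.

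A gene was called when edgeR's quasi-likelihood fit, with counts scaled by TMM (a scaling that assumes that most genes do not differ), gave a Benjamini-Hochberg adjusted p below 0.05 over all 16094 genes. By this rule 6875 genes (42.7%) were called, 3897 of them (24.2%) higher and 2978 (18.5%) lower in JG80 to JG84. A called difference of at least 2-fold was present in 1771 genes (11.0%), 1034 (6.42%) higher and 737 (4.58%) lower. Without a model of the spread, though still scaled by TMM, the 5 values of JG80 to JG84 lay wholly above those of JG74 to JG78 in 3097 genes (19.2%) and wholly below them in 1995 genes (12.4%), together 5092 genes (31.6%). Since the contrast chose the libraries, nothing is read from these shares beyond their size. The balance of higher and lower genes depended on the libraries kept and on the scaling. With TMM and all 10 libraries, 56.7% of the calls were higher. With single libraries left out this share was 50.4% (without JG76, 3230 higher and 3184 lower) to 58.3% (without JG81). With the library total in place of TMM, 5944 genes were called higher and 1558 lower, 1833 and 398 of them by at least 2-fold. The non-overlapping genes were then 4734 higher and 933 lower, and the median log2 fold change of all genes was 0.23, against -0.01 with TMM. No gene called with TMM was called in the opposite direction with the library total, while 1420 of the 6875 were no longer called.

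Most differences were small. The median absolute log2 fold change of all 16094 genes was 0.39. Of the genes compared, 9804 (60.9%) differed by less than 0.5 on the log2 scale, and 922 of these were called higher and 845 lower. A further 4409 genes (27.4%) lay between 0.5 and 1, and 1728 (10.7%) between 1 and 2. The largest differences comprised 141 genes between 2 and 3 and 12 genes beyond 3 on the log2 scale, and of those 12, 7 were called higher and 5 lower in JG80 to JG84. The filter needed enough counts in only 5 libraries, so a gene could be kept through the block where it was high. Some of these folds rest on few counts: the largest log2 fold change, 4.31, lay in ranks 10001 to 16094 by mean CPM, below 3.34 CPM.

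**Figure D2:**
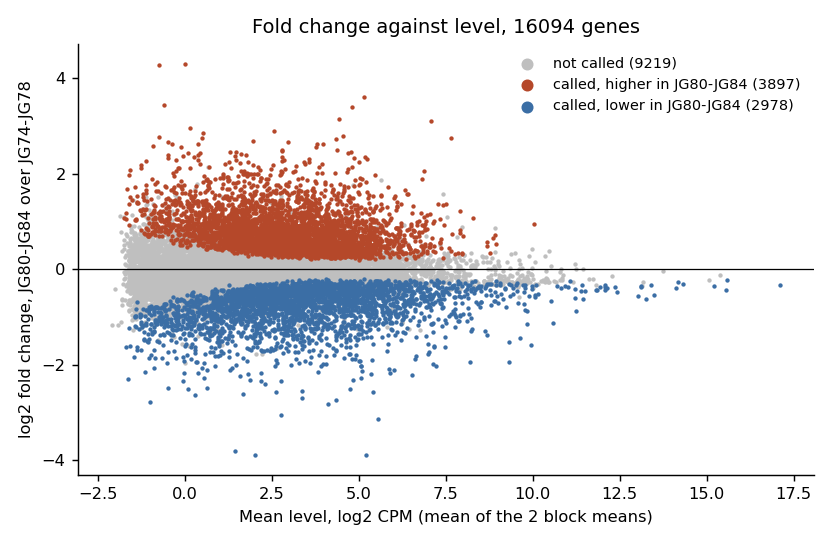
Log2 fold change of each gene, JG80 to JG84 over JG74 to JG78 (vertical axis), against its mean level in log2 CPM (horizontal axis) for 16094 genes scaled by TMM. Red points were called higher (3897 genes), blue points called lower (2978) and grey points not called, and at the right-hand, most abundant end nearly all called genes lie below the zero line with TMM, though fewer of them were called with the library total.

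The genes with the largest differences are given by identifier, as the files do not pair them with names, and their functions are not known here. Among genes that averaged 10 CPM or more, were called and did not overlap between blocks, 1302 were higher and 1021 lower in JG80 to JG84, and the 2 with the largest fold in each direction are described. Nfu_g_1_020882 had 46.9, 22.0, 46.0, 149 and 64.3 CPM in JG80, JG81, JG82, JG83 and JG84. In JG74, JG75, JG76, JG77 and JG78 it had 5.78, 2.93, 5.94, 5.07 and 7.14 CPM. All 5 libraries of JG80 to JG84 were above all 5 of JG74 to JG78, and JG83 was well above the other 4 of its block. The means were 65.5 ± 48.8 CPM in JG80 to JG84 and 5.37 ± 1.56 CPM in JG74 to JG78 (SD, n = 5 each), a log2 fold change of 3.61 ± 0.46 (SE), or 12.2-fold. Without JG83 the log2 fold change was 3.06.

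Nfu_g_1_012371 was more even within JG80 to JG84, though not within JG74 to JG78. Its levels were 47.3, 37.8, 56.0, 66.4 and 48.5 CPM in JG80 to JG84, in the order of their numbers. In JG74 to JG78 they were 5.08, 3.10, 5.11, 3.33 and 7.71 CPM, so the lowest library of JG80 to JG84 was still well above JG78, the highest of the other block. The means were 51.2 ± 10.7 CPM in JG80 to JG84 and 4.87 ± 1.85 CPM in JG74 to JG78 (SD, n = 5 each), with a log2 fold change of 3.40 ± 0.25 (SE), or 10.5-fold.

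Nfu_g_1_018267 had the largest difference in the other direction. It had 1.83, 5.59, 3.93, 2.30 and 9.55 CPM in JG80 to JG84, in the order of their numbers. In JG74 to JG78 it had 126, 33.6, 71.4, 58.5 and 55.8 CPM. The blocks did not overlap, JG74 was the highest library and JG75 the lowest of its block. The means were 4.64 ± 3.12 CPM in JG80 to JG84 and 69.1 ± 34.7 CPM in JG74 to JG78 (SD, n = 5 each), with a log2 fold change of -3.90 ± 0.48 (SE), which is 14.9-fold lower in JG80 to JG84. With single libraries left out the log2 fold change was -3.60 (without JG74) to -4.34 (without JG84, the highest library of JG80 to JG84).

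Nfu_g_1_013265 had 12.1, 11.9, 7.56, 8.12 and 8.37 CPM in JG80 to JG84, in the order of their numbers. In JG74 to JG78 it had 97.0, 67.3, 75.5, 122 and 58.4 CPM. Every library of JG74 to JG78 exceeded every library of JG80 to JG84, and JG77 rather than JG74 was the highest. The means were 9.62 ± 2.21 CPM in JG80 to JG84 and 83.9 ± 25.4 CPM in JG74 to JG78 (SD, n = 5 each), with a log2 fold change of -3.13 ± 0.23 (SE), or 8.74-fold lower in JG80 to JG84. The library that stood highest thus differed between these 2 genes.

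**Figure D3:**
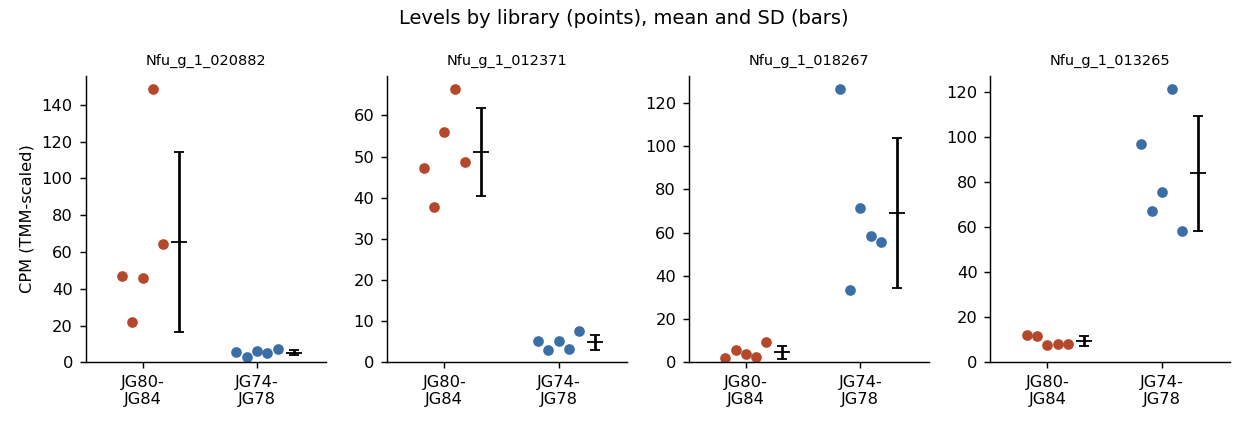
Level in TMM-scaled CPM (vertical axes, each starting at 0) of the 4 genes in the 5 libraries of JG80 to JG84 (red) and the 5 of JG74 to JG78 (blue), with points in the order of the title numbers and black bars for the mean and SD. The blocks do not overlap in any of the 4 genes, and JG83 in Nfu_g_1_020882 (149 CPM) and JG74 in Nfu_g_1_018267 (126 CPM) lie apart from the rest of their blocks.

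The 20 genes of largest fold in each direction were chosen for that fold, and their values show how the libraries of a block varied among themselves. The 20 higher genes differed by 4.39-fold to 12.2-fold (median 5.24-fold) at mean levels of 10.7 to 202 CPM. The 20 lower genes were 4.07-fold to 14.9-fold lower in JG80 to JG84 (median 4.75-fold) at mean levels of 10.2 to 149 CPM. Among the higher genes, the lowest library of JG80 to JG84 exceeded the highest of JG74 to JG78 by 1.29-fold to 4.90-fold, with a median of 2.84-fold. Among the lower genes, the lowest library of JG74 to JG78 exceeded the highest of JG80 to JG84 by 1.08-fold to 4.81-fold, with a median of 2.43-fold. All 20 genes of each set were still called when any single library was left out and when the library total replaced TMM. The genes were picked as called and of largest fold in these same libraries, so this could hardly have come out otherwise. These calls also do not say that the fold of a gene stayed as large.

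The library that stood highest within a block differed between the sets. In the 20 higher genes, JG83 was the highest library of JG80 to JG84 in 9 and JG80 in 5, while JG78 was the highest of JG74 to JG78 in 15. In the 20 lower genes, JG84 was the highest library of JG80 to JG84 in 8, and JG74 was the highest of JG74 to JG78 in 9. JG75 and JG78 were the lowest of JG74 to JG78 in 9 and 8 of these lower genes. In those 15 of the 20 higher genes JG78 was therefore the library of its block nearest to the other block. The same count was not made over all genes. Some of the 20 varied together, such as Nfu_g_1_002271 and Nfu_g_1_002380, so they are not separate observations. JG78 had the highest position of its block on the axis between the blocks, which was computed from the same libraries. The range within a block, its highest library over its lowest, had a median of 1.63-fold in JG80 to JG84 and 2.33-fold in JG74 to JG78 for the higher genes, and of 1.68-fold in JG80 to JG84 and 2.19-fold in JG74 to JG78 for the lower genes. The widest such range was 17.3-fold, in the lower gene Nfu_g_1_001285 within JG74 to JG78, and it came from JG74. In log2 CPM minus the gene mean, JG74 was at 3.62, and JG75, JG76, JG77 and JG78 were at -0.486, 0.126, 0.722 and 0.137. The libraries JG80 to JG84 were at -1.10 to -0.597, so the fold of this gene rested largely on JG74.

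**Figure D4:**
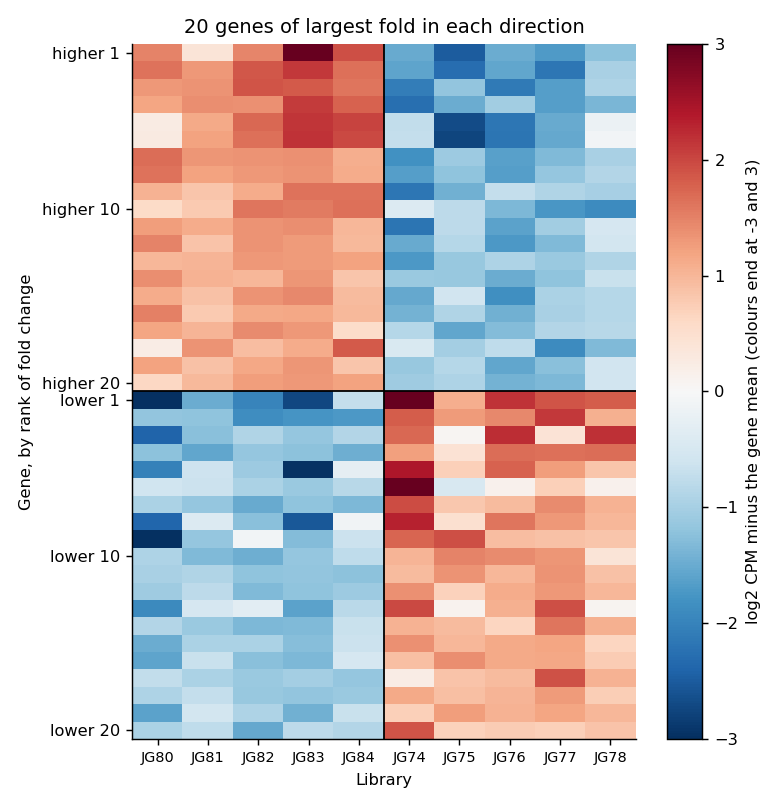
Log2 CPM minus the mean of the gene over the 10 libraries (colour, ending at -3 and 3) for the 20 genes of largest fold higher in JG80 to JG84 (upper rows) and the 20 lower (lower rows), by library (columns). JG78 is the palest column of its block in many of the higher genes, of which it was the highest of JG74 to JG78 in 15.

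The balance of higher and lower genes changed with abundance, at a rank that depended on the scaling. With TMM, of the 20 most abundant genes, 0 were called higher and 15 lower in JG80 to JG84, with log2 fold changes of -0.62 to -0.04 and a median of -0.34. Of the next 80 genes, 1 (1.25%) was called higher and 31 (38.8%) lower. Of the genes ranked 101 to 1000, 132 (14.7%) were called higher and 326 (36.2%) lower, against 24.2% and 18.5% of all genes. Below these ranks the balance of calls turned with TMM. It was 1196 (29.9%) higher and 940 (23.5%) lower in ranks 1001 to 5000, and 1539 (30.8%) higher and 970 (19.4%) lower in ranks 5001 to 10000. The balance in ranks 1001 to 5000 was close to that of all genes, 3897 higher and 2978 lower. Ranks 10001 to 16094 had 1029 (16.9%) higher and 696 (11.4%) lower, both below the shares of all genes. The median log2 fold change of this last class was -0.06. With DESeq2 size factors, another scaling, ranks 1001 to 5000 were nearly even, at 1085 higher and 1079 lower. All genes together were then nearly even as well, at 3536 higher and 3402 lower. With the library total, 0 of the 20 most abundant genes were called higher and 4 lower, and the median log2 fold change was -0.11. With that scaling ranks 101 to 1000 turned round, to 265 higher and 165 lower, where all genes had 5944 higher and 1558 lower. With TMM the median log2 fold change was -0.34 in the 20 most abundant genes and 0.03 in ranks 1001 to 5000. With the library total these medians were -0.11 and 0.26. A change of scaling moves all genes by nearly the same amount, so the gap between these classes could hardly change. Called differences of at least 2-fold were absent from the 20 most abundant genes, and of the next 80 genes 3 were lower by that much and 0 higher with TMM.

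The shares of all counts amount to scaling by the library total, so they restate that comparison and do not add to it. The 20 genes with the most counts held 49.2% ± 1.16 of the counts in JG80 to JG84 and 51.9% ± 1.12 in JG74 to JG78 (SD, n = 5 each). The ranges, 48.1% to 51.0% in JG80 to JG84 and 50.6% to 53.2% in JG74 to JG78, overlapped slightly. The number of genes needed to reach 50% of the counts was 19 to 25 in JG80 to JG84 and 16 to 19 in JG74 to JG78. The single most abundant gene held 13.5% ± 0.451 in JG80 to JG84 and 14.5% ± 1.34 in JG74 to JG78 (SD, n = 5 each), a difference smaller than the spread within JG74 to JG78. The 3897 genes called higher held 8.45% ± 0.322 of the counts in JG80 to JG84 and 4.34% ± 0.131 in JG74 to JG78, and the 2978 genes called lower held 53.2% ± 1.22 in JG80 to JG84 and 60.5% ± 0.941 in JG74 to JG78 (SD, n = 5 each). These last shares belong to genes chosen for the difference and describe only where the counts lay. TMM factors were 1.04 to 1.17 in JG80 to JG84 and 0.879 to 0.975 in JG74 to JG78, a mean gap of 0.23 on the log2 scale. The shift in the median fold change between the scalings follows from this gap by calculation.

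**Figure D5:**
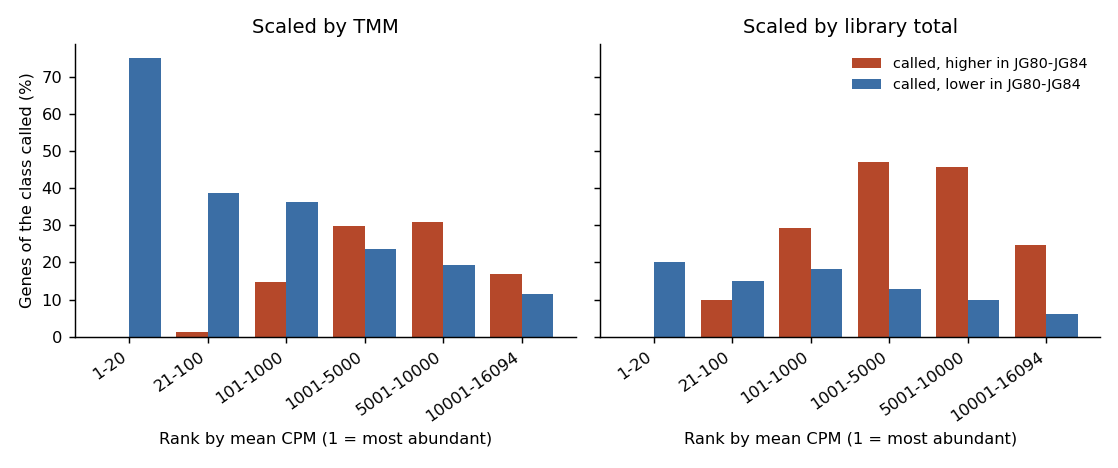
Percent of genes called higher (red) and lower (blue) in JG80 to JG84 (vertical axis, from 0) in classes of genes ranked by mean CPM (horizontal axis), scaled by TMM (left) and by the library total (right). Among the 20 most abundant genes 75% were called lower with TMM and 20% with the library total, and 0 were called higher with either; the class of ranks 101 to 1000 changes sides.

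Shares of called genes lay within a few percentage points of each other over most of the range of gene length. All 16094 genes had a length, worked out from the deposited counts and RPKM values. In the shortest quartile, up to 1443 bases, 23.3% of genes were called higher and 16.6% lower, and the middle quartiles had 25.2% and 27.2% higher and 17.7% lower in both. In the longest quartile, over 4969 bases, 21.2% were called higher and 22.1% lower. The median log2 fold change was 0.00 in the shortest and -0.07 in the longest quartile. The longest quartile also held the more abundant genes, with a median of 9.97 CPM against 3.50 CPM in the shortest, so length and abundance are not separated here. Removing a smooth length trend from each library gave 6781 called genes, 3569 higher and 3212 lower, against 6875 with the trend kept. Called in both fits were 6335 genes. The share of calls that were higher was 52.6% with the trend removed and 56.7% with it kept.

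Strict presence in a block and absence from the other was rare, under a rule that a single read breaks. Genes nearly absent from a block were not counted here. Only 4 genes had counts in all 5 libraries of JG80 to JG84 and 0 in all 5 of JG74 to JG78, and 0 genes had the reverse pattern. The highest count of these 4 genes in any library was 6, and none passed the filter on low counts. A count of 0 allows, by counting error, up to 3 counts over the JG74 to JG78 libraries together. Scaled to the block totals, the observed counts of these 4 genes in JG80 to JG84 were 1.96-fold to 4.48-fold above that limit. Counting error in those few counts was not allowed for, so the differences may be smaller, and the genes were picked for this pattern. Leaving out a library loosens the rule for this pattern, so the number of genes could not fall below 4. It was 6, 14, 8, 8 and 13 genes, both directions together, without JG80, JG81, JG82, JG83 and JG84. Without JG74, JG75, JG76, JG77 and JG78 it was 17, 14, 9, 11 and 9 genes. The identifiers end in running numbers, and the share of called genes followed by a gene called in the same direction lay close to the share in all genes. The next number was called higher in 23.8% of the 2733 higher genes whose next number was compared (24.2% of all genes), and called lower in 18.9% of 2065 lower genes (18.5% of all genes).

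The spread within the blocks does not follow from the difference of their means, and its estimates were larger in JG74 to JG78, a difference that was not tested. The BCV (biological coefficient of variation), which edgeR estimates as the relative spread that counting error does not account for, had a common value of 0.219 in JG80 to JG84 and 0.249 in JG74 to JG78, each fitted to 5 libraries. Fitted to all 10 libraries it was 0.234 with the block as a term and 0.325 without it. The median SD of log2 CPM over genes was 0.21 in JG80 to JG84 and 0.26 in JG74 to JG78, and 10031 genes (62.3%) had the larger SD in JG74 to JG78. Both measures depended on library JG74. Without it the ratio of the common BCV, JG80 to JG84 over JG74 to JG78, was 1.05 in place of 0.877, so the order reversed. The share of genes with the larger SD in JG74 to JG78 fell from 62.3% to 52.6% without JG74. The median SD without JG74 was not worked out.

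JG74 stood apart from the other libraries of its block in more genes than any other library did. Dixon's gap test among the 5 libraries of a block marks about 5% of groups by chance when all values come from a single normal group. It marked a library in 817 genes (5.08%) in JG80 to JG84 and in 996 genes (6.19%) in JG74 to JG78. JG74 was apart in 505 genes (3.14%), 273 as the highest and 232 as the lowest library. In JG80 to JG84 the library most often apart was JG80, in 345 genes (2.14%), 231 as the highest and 114 as the lowest. The other 8 libraries were apart in 92 to 177 genes each. JG74 also had the lowest median correlation with the other block (0.918) and with its own block (0.958), and the smallest total count. Whether its depth bears on this was not tested here. Without JG74 the contrast had 6841 called genes, 3552 higher and 3289 lower, and 1668 with at least a 2-fold difference. With all 10 libraries it had 6875, 3897 higher and 2978 lower, and 1771 with at least a 2-fold difference. Called in both fits were 6196 genes. The number of calls also depends on the spread within the blocks, so it does not give the size of the separation without JG74. Of the 6875 genes called with all 10 libraries, 5383 (78.3%) were called whichever single library was left out.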

How the data were processed

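Total RNA of 10 muscle samples was made into TruSeq RNA v2 libraries, per the labels' protocols. Tools listed in the submitters' processing notes are featureCounts 1.4.6-p4, STAR 2.4.1d and bcl2fastq 1.8.4. Build, annotation, strand setting and handling of shared reads were not given in the sources used here, so overlapping or near-identical genes may share reads. The authors deposited whole-number read counts per gene, used as deposited, and RPKM values. RPKM entered only through gene lengths: with each library's own total the length implied for a gene varied (median CV 23.5%), whereas with the 10 totals repeated down the rows it varied by at most 0.0716% in 5434 genes, and lengths were taken on that basis. Columns left unused numbered 0.

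Libraries were grouped by title number. Genes were kept by filterByExpr (block as group), scaled by TMM and fitted with glmQLFit and glmQLFTest in edgeR 4.0.16 (R 4.3.3); log2 CPM used a prior count of 2. The fit was run on simulated data with independent genes, the same spread for every gene and few changed genes. These data differ from that setting, so nothing is concluded from it here. DESeq2 1.42.0 and limma 3.58.1 served as alternatives, with other scalings, thinning, no filter, removal of the 20 most abundant genes, removal of a length trend (loess, span 0.3) and each library left out. Figures used matplotlib 3.10.9. Genes named are the 2 of largest fold per direction among called, non-overlapping genes of at least 10 CPM. The SE of a log2 fold change is its absolute value divided by the square root of the quasi-likelihood F statistic. The contrast, rules and lists were chosen with earlier results of these data known. Gene lists by symbol could not be read, since 0 identifiers matched. Abundance classes under other scalings, the held-out positions and the counts of adjacent identifiers were added after the data were seen. Depth was 24844696 to 42170825 counts per library. The limit used for genes at 0 in a block covers the counting error of the 0 only, not that of the other block.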

Additional observations from a re-analysis of the deposited data

How the results depend on the processing

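No paired analysis was possible because the 2 blocks share no title number. With all libraries kept, 6585 (no filter) to 7502 (library total) genes were called under the other settings. The totals of called, 2-fold and non-overlapping genes, both directions together, stayed within 1.5 times the values in the report, also with single libraries left out. The counts per direction did not: with the library total, calls numbered 5944 higher and 1558 lower, 2-fold calls 1833 and 398, and non-overlapping genes 4734 and 933. With the library total after removal of the 20 most abundant genes, 484 2-fold calls and 1225 non-overlapping genes were lower. With 1 library left out at a time, the calls numbered 5998 (without JG83) to 6841 (without JG74), the 2-fold calls 1657 to 1917 and the non-overlapping genes 5253 to 5672. The rule for non-overlapping genes is easier to meet with 1 library fewer, as is the rule for genes at 0 in 1 block. Their counts with libraries left out therefore do not measure stability. The share of calls that were higher was 79.2% with the library total and 72.3% with the library total after removal of the 20 most abundant genes. It was 56.7% with TMM, 51.0% with DESeq2 size factors and 50.5% with DESeq2's Wald test. With TMM and single libraries left out, this share was 50.4% (without JG76) to 58.3% (without JG81). The median log2 fold change of all genes was -0.0549 under DESeq2 size factors, 0.23 under the library total, -0.0449 with the 20 most abundant genes removed, 0.148 with these removed and the library total, -0.0553 with DESeq2's Wald test, and -0.0514 to 0.0026 with libraries left out. The ratio of the BCV of the blocks was 0.830 to 1.05, the difference in total counts 3089295 to 6918916, and the genes at 0 in 1 block 6 to 17 with libraries left out. The 4 named genes kept their direction and their call in every setting run for them. They were picked as called, non-overlapping and of largest fold in these same libraries, so this does not measure stability. The library total after removal of abundant genes was chosen after seeing the data. Symbol lists were not run.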
